A study of Coturnix japonica with 19 samples.

Results

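Genes of bone matrix and of the cells that make it were followed through the pituitary glands of Japanese quail: COL1A1, COL1A2, SPP1, IBSP, SPARC, ALPL, RUNX2, IFITM5 and PHEX. They are 9 of the 19562 gene symbols in the count table, and all 9 were found. The list was set by gene name, but with earlier results of these data known. The glands came from 19 birds, with 1 library of polyadenylated RNA for each bird, read as PCR-amplified complementary DNA on a Nanopore sequencer. The 4 groups were 5 adults under 16 h of light and 8 h of dark (16L), 5 adults under 8 h of light and 16 h of dark (8L), 4 juveniles under 16L and 5 juveniles under 8L. All adults were males that began in long days. The 8L adults then spent 8 weeks in short days, and the methods describe the 16L adults as a further set moved on to long days and taken 8 weeks later, so that photoperiod, age and light history cannot be told apart in adults. Juveniles were kept in long days for 5 days after hatching, spent 5 days in 16L or 8L and were taken at posthatch day 10. Of the sequenced juveniles 3 are listed as females, 2 under 16L and 1 under 8L. The gland was lifted out of the sella turcica, the bony seat of the pituitary, with the pars tuberalis left on the brain. The methods describe no treatment other than light. Adults were fed layers pellets, while juveniles were hatched in an incubator, kept under heat lamps and fed starter crumb. Age, diet and housing thus cannot be told apart.

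Osteoblasts build bone by laying down type I collagen, a fibre wound from the COL1A1 and COL1A2 chains, and then loading it with calcium phosphate. Acidic proteins such as osteopontin (SPP1), bone sialoprotein (IBSP) and osteonectin (SPARC) bind the collagen or the mineral. Alkaline phosphatase (ALPL) and the endopeptidase PHEX take part in the handling of phosphate. RUNX2 is the transcription factor that starts the osteoblast programme, and IFITM5 is a small membrane protein of bone-forming cells. Type I collagen and SPARC are also made by fibroblasts and other connective tissue cells.

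Library totals were between 128509 and 4796665 estimated counts in adults and between 90599 and 1074139 in juveniles, with 1 adult and 4 juvenile libraries under 200000. One count therefore stood for 0.206 to 9.70 counts per 1000000 (CPM), where CPM is taken over the library total and its TMM factor. At least 4 of the 6 hormone genes that define the tissue had a count in every library, and the summed CPM over GH, PRL, POMC, CGA, FSHB and TSHB lay between 36190 and 54207 in adults under 16L, between 12595 and 27638 in adults under 8L, between 53897 and 96752 in juveniles under 16L, and between 2545 and 45975 in juveniles under 8L. The lowest hormone sums, 2545 and 6931 CPM, belonged to 8L juveniles 1 and 5. Those same libraries held the most bone transcripts, and the 8L values of the members are also given without them. In RNA from a whole gland, fewer cells of a type and less RNA per cell cannot be told apart.

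Adult glands had little of the 9 genes. Their summed level was 32.8 to 53.0 CPM in 16L adults and 31.9 to 50.4 CPM in 8L adults, and every juvenile lay above every adult. The 16L juveniles had 4422, 2445, 201 and 138 CPM, and the 8L juveniles had 15511, 108, 375, 1116 and 12444 CPM, both in replicate order. The juveniles were spread widely while the 10 adults stayed close together. As a share of all counts in the library, the 9 genes held 0.00251% to 0.00599% in adults and 0.0125% to 0.993% in juveniles.

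**Figure D1:**
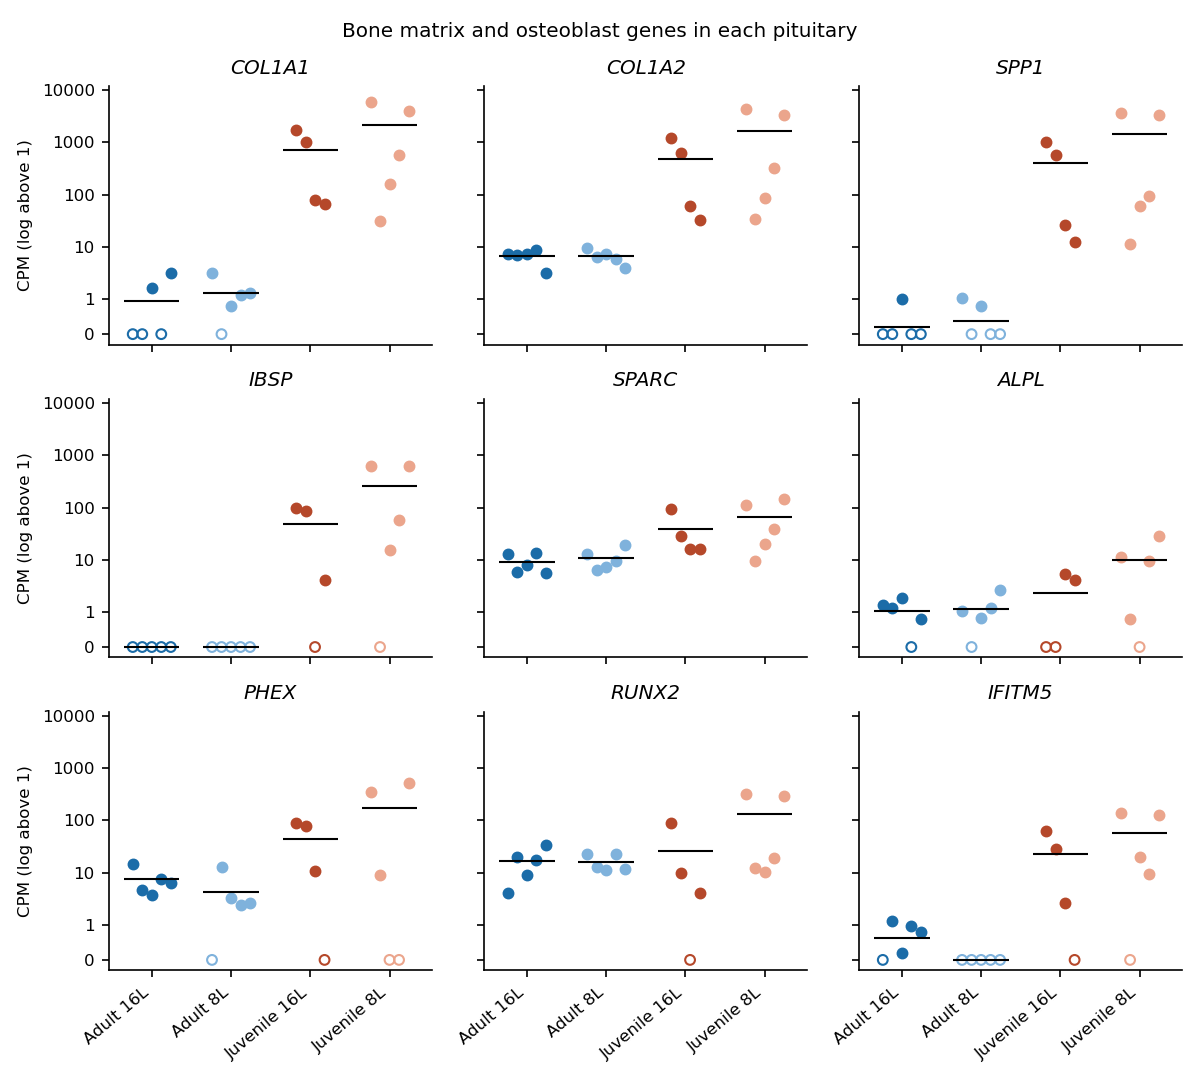
Level of each of the 9 genes in each bird (CPM, on an axis that is logarithmic above 1 and linear below), with the groups from left to right Adult 16L, Adult 8L, Juvenile 16L and Juvenile 8L. Filled points are birds, open points are birds with no count, and bars are group means. COL1A1, COL1A2 and SPP1 separate all adults from all juveniles, and juveniles 1 and 5 under 8L stand at the top of most panels.

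The chains of type I collagen differed most plainly with age. COL1A1, the chain present in the larger number of copies in the fibre, had 0, 0, 1.65, 0 and 3.16 CPM in 16L adults, against 1756, 1028, 79.5 and 65.1 CPM in 16L juveniles. Under 8L it had 3.22, 0, 0.819, 1.20 and 1.32 CPM in adults, against 5897, 31.6, 162, 568 and 4079 CPM in juveniles. The highest adult, at 3.22 CPM, was far under the lowest juvenile, at 31.6 CPM, and 4 of the 10 adults had no COL1A1 count at all. COL1A1 fell in adults in edgeR's quasi-likelihood test, with a log2 fold change, adult over juvenile, of -9.24 under 16L (standard error 1.26, Benjamini-Hochberg adjusted p = 0.00901 over all genes tested) and of -10.26 under 8L (standard error 1.52, adjusted p = 0.0207). With all 19 libraries in one fit and photoperiod as a term it was -9.76 (standard error 1.07, adjusted p = 2.14e-05). Standard errors here and below were worked back from the log2 fold change and the F value of this test, and are approximate.

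COL1A2, the partner chain, was present in every adult. It had 7.45, 7.14, 7.43, 8.68 and 3.16 CPM in 16L adults, against 1205, 621, 61.0 and 32.5 CPM in 16L juveniles. Under 8L it had 9.66, 6.50, 7.37, 5.99 and 3.96 CPM in adults, against 4359, 34.0, 86.2, 317 and 3295 CPM in juveniles. The ages did not overlap in either photoperiod. COL1A2 fell in adults by a log2 fold change of -6.17 under 16L (standard error 0.97, adjusted p = 0.0115), -7.91 under 8L (standard error 1.35, adjusted p = 0.0447) and -7.05 over both photoperiods (standard error 0.92, adjusted p = 7.28e-05).

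The 8L calls were the less secure. Leaving out any single 8L adult ended both, with adjusted p values of 0.0503 to 0.139 for COL1A1, and leaving out 8L juvenile 1, 4 or 5 ended that of COL1A2 as well (adjusted p = 0.0587 to 0.196 over these 8 fits), although the log2 fold changes stayed between -10.77 and -9.38 for COL1A1 and between -8.22 and -7.07 for COL1A2. Without 8L juveniles 1 and 5 together the log2 fold change under 8L was -6.96 for COL1A1 (adjusted p = 0.0288) and -4.20 for COL1A2 (adjusted p = 0.0510). Without 8L adult 3, 4 or 5 no gene at all was called under 8L. With limma-voom the call of COL1A2 under 16L was lost (adjusted p = 0.0692). Both 8L calls were lost with it too (adjusted p = 0.224 for COL1A1 and 0.267 for COL1A2). In the fit over both photoperiods neither chain lost its call when any one library was left out, with an adjusted p of at most 1.31e-04 for COL1A1 and 3.41e-04 for COL1A2.

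The balance of the chains was also described by age. With 22 COL1A1 and 105 COL1A2 counts, COL1A1 made up 17.3% of both in adults (Clopper-Pearson 95% interval 11.2% to 25%), and with 3934 and 2984 counts 56.9% in juveniles (55.7% to 58.0%). The share was 15.4% under 16L and 20.4% under 8L in adults, and 59.9% under 16L and 56.4% under 8L in juveniles. Between birds the share ran from 0% to 50% in adults and from 48.1% to 66.7% in juveniles, so that the ranges overlapped only through 16L adult 5, with 4 counts of each chain, and 8L juvenile 2, with 39 and 42. Intervals and floors over several birds pool their counts, so they reflect counting error alone and leave out the spread between birds. Of the 3934 COL1A1 counts in juveniles, 1541 and 1722 were in 8L juveniles 1 and 5. Amplified copies of one molecule are counted separately, so the counting error itself may be larger than given. The counts are not corrected for transcript length. No test was run on the shares.

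**Figure D2:**
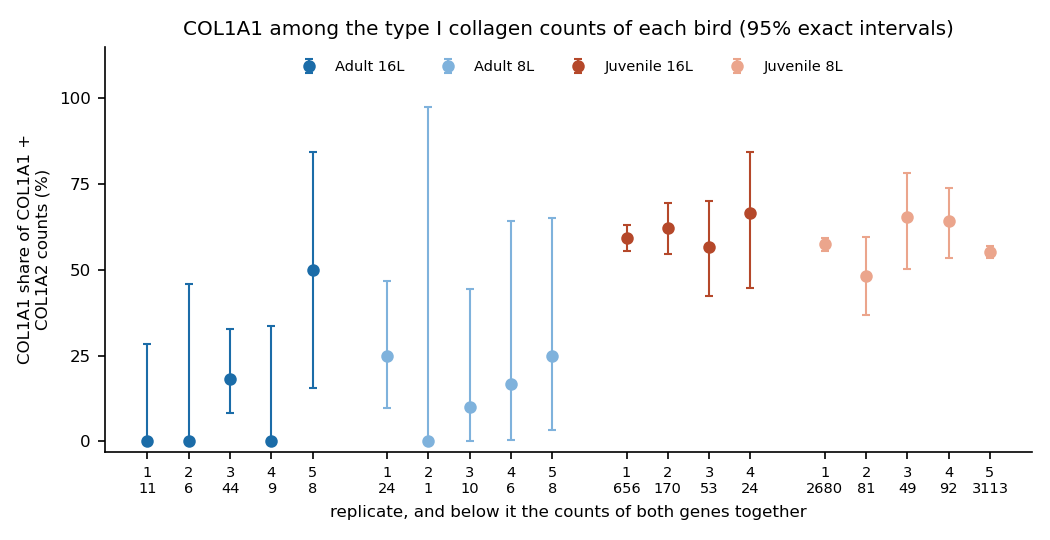
Share of COL1A1 among the COL1A1 and COL1A2 counts of each bird (percent, vertical axis), with exact 95% intervals as bars, the replicate number under each point and the counts of both genes below it. Adults lie to the left, with shares of 0% to 50% and wide intervals, and juveniles to the right, with shares of 48.1% to 66.7%.

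The acidic mineral-binding proteins SPP1 and IBSP had few or no counts in adults. SPP1 had 0, 0, 1.03, 0 and 0 CPM in 16L adults, against 1025, 563, 26.5 and 12.2 CPM in 16L juveniles. Under 8L it had 1.07, 0, 0.819, 0 and 0 CPM in adults, against 3697, 11.3, 60.8, 96.2 and 3331 CPM in juveniles. SPP1 had a count in 3 of the 10 adults, and no adult overlapped with a juvenile. SPP1 fell in adults by a log2 fold change of -9.60 under 16L (standard error 1.42, adjusted p = 0.00901) and -10.34 over both photoperiods (standard error 1.26, adjusted p = 4.84e-05). Under 8L it did not pass the filter on low counts, and its 3 adult counts against 2408 juvenile counts made it 2020-fold lower in adults (exact 95% interval 691-fold to 9804-fold). Leaving out single libraries moved this between 1038-fold without 8L juvenile 5 and 4530-fold without 8L juvenile 2, with 4040-fold without 8L adult 1 and 1371-fold without 8L juvenile 1. Without 8L juveniles 1 and 5 together, 36 juvenile counts were left and SPP1 was 43.6-fold lower in adults (exact 95% interval 13.8-fold to 221-fold). In the fit without that filter its adjusted p under 8L was 4.33e-04, and 1.16e-04 without those juveniles (log2 fold change -5.99). With limma-voom SPP1 was not called under 16L (adjusted p = 0.0856), nor under 8L without the filter (adjusted p = 0.0535).

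IBSP, which seeds mineral on collagen, had no count in any adult. It had 99.3, 87.3, 0 and 4.07 CPM in 16L juveniles and 620, 0, 15.2, 57.7 and 628 CPM in 8L juveniles, so that 7 of 9 juveniles held it and the rest overlapped with the adults at 0. With a floor of 3 counts over the adults of a group, IBSP was at least 106-fold lower in adults under 16L and at least 366-fold lower under 8L. These bounds rested on few birds. Under 16L, 31 of the 32 juvenile counts were in juveniles 1 and 2, and the bound was 43.4-fold without 16L juvenile 1, 52.0-fold without 16L adult 3 and 177-fold without 16L juvenile 3. Under 8L the bound was 177-fold without 8L juvenile 5, 244-fold without 8L adult 1, 825-fold without 8L juvenile 2, and 10.9-fold without 8L juveniles 1 and 5 together, which left 9 juvenile counts. IBSP fell in adults in the fit over both photoperiods (adjusted p = 0.00686), and in the fits without a filter under 16L (adjusted p = 0.00272) and 8L (adjusted p = 0.00463). The 16L call was lost with libraries of 200000 counts or more (adjusted p = 0.426) and with DESeq2 (adjusted p = 0.0504), and the 8L call held without 8L juveniles 1 and 5 (adjusted p = 0.0132). With limma-voom the call over both photoperiods (adjusted p = 0.115) and the 8L call (adjusted p = 0.194) were lost. In the quail annotation of assembly Coturnix japonica 2.1, IBSP lies beside SPP1 on chromosome 4. A single gene, listed there only under a symbol starting with LOC, is between them, and DMP1 follows on the other side of IBSP. No base sequence is given, and positions are left out because the annotation behind the counts could not be matched to that assembly.

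SPARC, the collagen-binding glycoprotein osteonectin, is made by many cells besides osteoblasts, and like COL1A2 it had counts in every bird. It averaged 9.14 ± 3.80 CPM in 16L adults (SD, n = 5) against 39.0 ± 37.7 in 16L juveniles (SD, n = 4), and 11.1 ± 5.12 in 8L adults against 65.3 ± 60.4 in 8L juveniles (SD, n = 5 each). The 16L groups were separated by a small gap, with 13.5 CPM in the highest adult and 15.9 in the lowest juvenile, and the 8L groups overlapped, with 19.1 CPM in the highest adult and 9.71 in the lowest juvenile. SPARC fell in adults over both photoperiods (log2 fold change -2.32, standard error 0.49, adjusted p = 0.0107), while its log2 fold changes of -2.11 under 16L (adjusted p = 0.163) and -2.51 under 8L (adjusted p = 0.382) did not pass alone in edgeR's quasi-likelihood test. DESeq2 called SPARC lower in adults within each photoperiod (adjusted p = 0.0368 under 16L and 0.0302 under 8L). The call over both photoperiods was lost with limma-voom (adjusted p = 0.0523) and, in edgeR, with libraries of 200000 counts or more (adjusted p = 0.0792). Without 8L juveniles 1 and 5 the call over both photoperiods was lost (log2 fold change -1.48, adjusted p = 0.143), and the log2 fold change under 8L was -0.61.

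ALPL and PHEX stand for the handling of phosphate. ALPL stayed at a few counts everywhere, 21 in all adults and 20 in all juveniles, or 1.04 ± 0.695 CPM in 16L adults against 2.34 ± 2.75 in 16L juveniles, and 1.15 ± 0.956 in 8L adults against 10.1 ± 11.5 in 8L juveniles. It passed the filter in no comparison, and without a filter its adjusted p was 0.811 under 16L and 0.311 under 8L. PHEX had 3.71 to 14.9 CPM in 16L adults against 0 to 90.3 in 16L juveniles, and 0 to 13 in 8L adults against 0 to 519 in 8L juveniles, with overlap in both photoperiods. PHEX had a count in 9 of 10 adults and in 6 of 9 juveniles. PHEX fell in adults over both photoperiods (log2 fold change -4.23, standard error 1.07, adjusted p = 0.0380), a call that ended in 13 of the 19 fits that leave out 1 library, those without 9 of the adults, 16L juveniles 1 or 2, or 8L juveniles 1 or 5 (adjusted p = 0.0560 to 0.0983). Without 8L juveniles 1 and 5 together the log2 fold change was -1.96 (adjusted p = 0.225). The call was lost with limma-voom as well (adjusted p = 0.153). In edgeR without the filter PHEX was called lower in adults under 8L (log2 fold change -5.75, adjusted p = 0.0273) and not under 16L (adjusted p = 0.241). That 8L call was lost in 8 of 21 alternative settings. Without 8L juveniles 1 and 5 together its log2 fold change was -0.82 (adjusted p = 0.822). The table lists a pair of PHEX transcripts whose counts were equal in 15 of 19 libraries and in all 10 adults, so the same reads may stand behind both, and the PHEX counts given here are sums over them.

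RUNX2, the regulator, had counts in every adult and was called in no comparison of ages by edgeR with counts summed over transcripts. It had 4.06, 20.2, 9.08, 17.4 and 33.2 CPM in 16L adults, against 90.3, 9.70, 0 and 4.07 CPM in 16L juveniles. Under 8L it had 22.5, 13, 11.5, 22.8 and 11.9 CPM in adults, against 325, 12.1, 10.1, 19.2 and 291 CPM in juveniles. The ages overlapped in both photoperiods, and 6 of the 9 juveniles lay within or under the range of the adults. Its log2 fold changes, adult over juvenile, were -0.69 under 16L (standard error 0.99, adjusted p = 0.945), -3.04 under 8L (standard error 0.96, adjusted p = 0.45) and -2.01 over both (standard error 0.80, adjusted p = 0.256). The sign rested on 3 libraries: it turned under 16L without 16L juvenile 1 (2.41) and under 8L without 8L juveniles 1 and 5 (0.40). Of the 5 RUNX2 transcripts listed, a single one held 152 of the 222 RUNX2 counts in adults and 209 of 249 in juveniles. With the largest transcript of each gene in place of the sum, RUNX2 passed over both photoperiods (adjusted p = 0.0259), and DESeq2 called it lower in adults under 8L (log2 fold change -3.0, adjusted p = 0.0470).

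IFITM5, whose human counterpart carries the mutation of a brittle bone disorder, had 0, 1.19, 0.206, 0.965 and 0.791 CPM in 16L adults, a single count in each of 4 birds, against 61.6, 29.1, 2.65 and 0 CPM in 16L juveniles. Under 8L no adult had a count, against 138, 0, 20.3, 9.62 and 126 CPM in juveniles. With a floor of 3 counts IFITM5 was at least 78.9-fold lower in 8L adults than in 8L juveniles. The bound was 42.5-fold without 8L juvenile 5, 178-fold without 8L juvenile 2, 52.6-fold without 8L adult 1, and 6.06-fold without 8L juveniles 1 and 5 together, which left 5 juvenile counts. IFITM5 fell in adults over both photoperiods (log2 fold change -6.53, standard error 1.03, adjusted p = 7.72e-04) and in the fits without a filter under 16L (adjusted p = 0.0171) and 8L (adjusted p = 0.0105). The 16L call was lost without 16L juvenile 1 (adjusted p = 0.365) or 2 (adjusted p = 0.0513), and the 8L call without 8L juveniles 1 and 5 together (adjusted p = 0.102). With libraries of 200000 counts or more the 16L call was lost too (log2 fold change -1.31, adjusted p = 0.849). So it was with all 4 groups in one fit (adjusted p = 0.0929) and with a replicate block (adjusted p = 0.0508). With limma-voom the call over both photoperiods (adjusted p = 0.0971) and the 8L call (adjusted p = 0.162) were lost.

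Over the list, 3 of the 5 genes past the filter under 16L were called lower in adults, where 0.211% of the 6641 genes tested were, and 2 of 4 under 8L, where 0.118% of 5106 were. Over both photoperiods 7 of 8 were called lower, all but RUNX2, against 1.14% of 7165 genes. Without the filter 5 of 9 were called lower under 16L against 0.397% of 18366 genes, and 6 of 9 under 8L against 0.592% of 18228. Adults and juveniles did not overlap, adults lower, for 4 of the 9 genes under 16L (COL1A1, COL1A2, SPP1 and SPARC) and for 3 under 8L (COL1A1, COL1A2 and SPP1), against 0.534% and 0.472% of all genes with a count. SPARC overlapped under 16L when the scaling factors came from all genes or were left out. No member was called higher in adults. Genes that pass the filter through the juveniles alone had to differ, and the members were chosen with earlier results of these data known. These counts therefore describe the list and are no separate support.

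**Figure D3:**
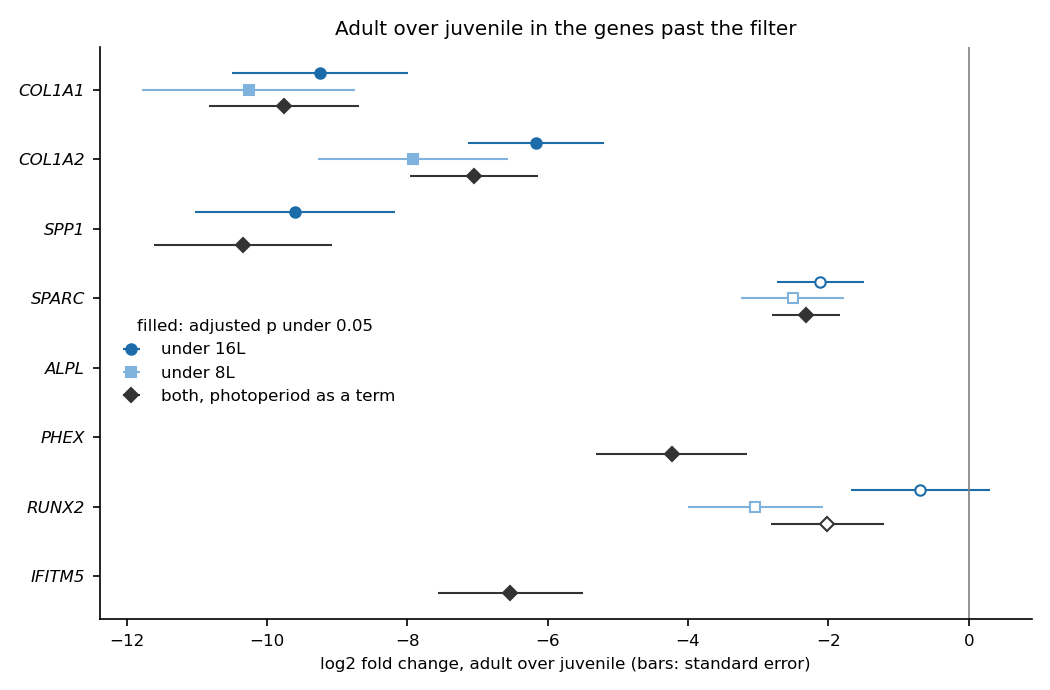
Log2 fold change, adult over juvenile, of each gene in the fits under 16L, under 8L and over both photoperiods, with standard errors as bars and filled symbols at an adjusted p under 0.05. The standard errors were worked back from the F value of the test. COL1A1, COL1A2 and SPP1 lie between -6.17 and -10.34, SPARC and RUNX2 between -0.69 and -3.04, and genes without a symbol did not pass the filter (IBSP, with no adult count, is not drawn).

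None of the genes passed the test between photoperiods within an age. In adults COL1A2, SPARC and RUNX2 passed the filter and none was called (adjusted p = 0.999 each), where 0.0267% of 7478 genes were. The log2 fold changes, 16L over 8L, were 0.0018 for COL1A2 (standard error 0.43), -0.38 for SPARC (standard error 0.42) and -0.027 for RUNX2 (standard error 0.50), and those of COL1A2 and RUNX2 changed sign between settings. Without the filter the largest was that of PHEX, 1.54 (standard error 0.75, adjusted p = 0.852), apart from IFITM5, whose 4 adult counts were all under 16L. DESeq2 called 12 genes and limma-voom 1 between the adult groups, none of them among the 9.

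In juveniles the mean level of all 9 genes was lower under 16L than under 8L, and none was called. COL1A1 averaged 732 ± 818 CPM in 16L juveniles (SD, n = 4) and 2148 ± 2679 in 8L juveniles (SD, n = 5). SPP1 averaged 407 ± 485 CPM in 16L juveniles (SD, n = 4) and 1439 ± 1898 in 8L juveniles (SD, n = 5). IBSP averaged 47.7 ± 53.0 CPM in 16L juveniles (SD, n = 4) and 264 ± 329 in 8L juveniles (SD, n = 5). Each of these SDs exceeded its mean. The log2 fold changes of the 6 genes past the filter lay between -2.36 for IBSP and -0.64 for SPARC, with an adjusted p of 0.999 each. Of 2405 genes tested, 0% were called by edgeR, 41 had an unadjusted p under 0.05, no member among them, and DESeq2 and limma-voom called 0. Without the filter, IBSP (0.0499) and RUNX2 (0.0477) had unadjusted p values under 0.05 in edgeR's quasi-likelihood test, with an adjusted p of 0.712 for both. Without 8L juveniles 1 and 5 the 4 genes past the filter turned, with log2 fold changes of 1.54 for COL1A1, 1.74 for COL1A2, 2.95 for SPP1 and 1.15 for IBSP. On mean CPM, 8 of the 9 genes were then higher under 16L, and ALPL stayed lower, at 2.34 CPM in 16L juveniles against 3.48 in the other 8L juveniles. The birds left out were the highest of all juveniles in these 4 genes, and the next highest, 16L juveniles 1 and 2, were kept. A turn could therefore be foreseen from the choice of birds and is no result about photoperiod. The test of whether age and photoperiod acted together called 0% of 7165 genes and no member (adjusted p = 0.928 to 1, with 411 genes at an unadjusted p under 0.05, 7 genes called by DESeq2 and 0 by limma-voom).

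Most of the genes ranked the same juveniles highest. For COL1A1, COL1A2, SPP1 and IFITM5 the order of the top 4 birds was 8L juvenile 1, 8L juvenile 5, 16L juvenile 1 and 16L juvenile 2, and for IBSP and PHEX the first pair changed places. RUNX2 had 16L juvenile 2 in place 7, and ALPL had no count in 16L juveniles 1 and 2. The correlation of each gene with the mean of the others over the 9 juveniles, on log2 CPM, was 0.991 for COL1A2, 0.985 for SPP1, 0.976 for COL1A1, 0.961 for SPARC, 0.951 for IBSP, 0.937 for IFITM5, 0.888 for RUNX2 and 0.812 for PHEX, and 0.415 for ALPL. These describe 9 libraries that share their depth and preparation across genes. The makeup of the set moved with its level: SPP1 gave 23.8% and 26.8% of the 9 genes' counts in 8L juveniles 1 and 5, and 8.62% to 16.2% in the 5 juveniles with the lowest sums. SPARC gave 0.716% and 1.18% in 8L juveniles 1 and 5, and 3.45% to 11.8% in those 5. In adults RUNX2 gave 10.0% to 62.7% and SPARC 10.4% to 46.0% of the few counts there were.

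Other genes of the same tissue were counted from lists of collagen processing, osteoblast regulation and bone mineral. In the fit over both photoperiods 9 of the 18 genes of bone matrix and mineral found were tested. Of these 5 were called lower in adults, where 1.14% of all 7165 genes tested were, and none higher. Their median log2 fold change was -3.01 beside 0.16 over all genes. BGLAP, osteocalcin, fell (adjusted p = 6.90e-05), with 1 adult count against 119 juvenile counts, 565-fold lower in adults (exact 95% interval 99.5-fold to 22515-fold), or 285-fold without 8L juveniles 1 and 5, 345-fold without 8L juvenile 5 alone and 919-fold without 8L juvenile 2. Without 8L adult 1, which held the adult count, it was at least 165-fold lower. DMP1, a phosphoprotein of osteocytes, fell (adjusted p = 0.0123), with no adult count against 102 juvenile counts, or at least 162-fold lower, with the bound at 34.3-fold without 8L juveniles 1 and 5, 84.0-fold without 8L juvenile 5 alone and 265-fold without 8L juvenile 2. COL5A2 and COL5A1, chains of the type V collagen that is built into type I fibres, fell by log2 fold changes of -3.57 (adjusted p = 0.00244) and -2.88 (adjusted p = 0.00832). POSTN was the fifth.

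Among collagen processing genes 2 of 11 tested were called lower, beside the same 1.14% of all genes, and none higher, with a median of -0.85. SERPINH1, the collagen chaperone HSP47, fell by a log2 fold change of -2.53 (adjusted p = 0.0206) and LOX, which cross-links collagen, by -3.82 (adjusted p = 0.0346). Among osteoblast regulators CTNNB1, beta-catenin, had a log2 fold change of -1.19 (adjusted p = 0.0841) and was not called. SP7, the osteoblast factor next in line after RUNX2, had no count in any adult and 2 counts in juveniles, which is under the floor.

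Within single photoperiods none of the 3 lists had a called gene. The 2 smallest adjusted p values of each list under 16L were those of COL5A1 (0.117), SERPINH1 (0.179), POSTN (0.376), LRP5 (0.482), SERPINF1 (0.579) and CTNNB1 (0.649). Their log2 fold changes were -2.09, -1.71, -2.68, 1.43, -0.78 and -0.72 in that order. Under 8L the 2 smallest of each list were those of COL5A1 and MGP (0.345 each), SERPINH1 (0.373), P4HB (0.45), CTNNB1 (0.476) and FGFR2 (0.613). Their log2 fold changes were -3.55, -3.56, -3.24, -1.69, -1.63 and -2.03 in that order.

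Markers of other cells moved along with the bone genes in some lists and not in others. The calls below come from the fit over both photoperiods, where 1.14% of 7165 genes were called lower. Tested there were 4 of the 11 osteoclast, 3 of the 16 cartilage, 10 of the 15 connective tissue, 5 of the 6 red cell and 2 of the 11 endothelial and mural genes found. Osteoclast markers, led by TNFRSF11A in adults and by NFATC1 or CTSK in juveniles, summed to 29.8 to 48.2 CPM in 16L adults against 7.95 to 275 in 16L juveniles, and 6.50 to 61.7 in 8L adults against 35.6 to 624 in 8L juveniles, and ACP5 and CTSK, enzymes of bone resorption, were 2 of 4 tested that were called lower in adults over both photoperiods. Connective tissue markers, led by COL3A1, summed to 178 to 319 CPM in 16L adults against 474 to 1341 in 16L juveniles, and 143 to 237 in 8L adults against 400 to 5105 in 8L juveniles, with no overlap between ages and 3 of 10 called lower. Red cell markers, led by HBA1, summed to 502 to 2216 CPM in 16L adults against 1114 to 6559 in 16L juveniles, and 811 to 2131 in 8L adults against 1631 to 11832 in 8L juveniles, with 5 of 5 called lower. Skeletal muscle markers, led by TNNI2, stayed at 2.89 to 8.05 CPM in adults and 0 to 22.6 in juveniles, and none could be tested. Endothelial and mural markers, led by PECAM1, summed to 25.1 to 113 CPM in 16L adults against 24.4 to 87.3 in 16L juveniles. Under 8L they summed to 19.5 to 93.4 CPM in adults against 106 to 225 in juveniles. The ages thus overlapped under 16L and not under 8L, and ACTA2 was the 1 of 2 called lower.

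On summed CPM, cartilage markers were highest in the 8L juveniles with the most bone transcripts. Led by COL11A1, they summed to 22.6 to 68.8 CPM in 16L adults against 40.7 to 407 in 16L juveniles, and 54.7 to 91.0 in 8L adults against 69.6 to 6793 in 8L juveniles, the highest being 6793 and 2281 CPM in 8L juveniles 1 and 5. COL2A1, the collagen that defines cartilage, had 593 and 54.5 CPM in these, 5.07 CPM in 8L juvenile 3, and was at 0 in all adults and in all 16L juveniles, 16L juvenile 1 with its 4422 CPM of bone genes included. In the 16L juveniles 8 of the 16 cartilage markers found were at 0, where 1 count stood for 2.65 to 9.70 CPM, so that zeros there say little. In the fit over both photoperiods COL10A1 and COL11A1, 2 of the 3 cartilage markers tested, were called lower in adults, where 1.14% of all genes tested were. The median log2 fold change of the 3 was -3.91. Cartilage sums were not scaled to the bone level. They were 6793 CPM beside 15511 of bone genes in 8L juvenile 1 and 2281 beside 12444 in 8L juvenile 5. In 16L juveniles 1 and 2 they were 275 beside 4422 and 407 beside 2445. The part that any of these cells had in the bone gene levels was not tested.

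**Figure D4:**
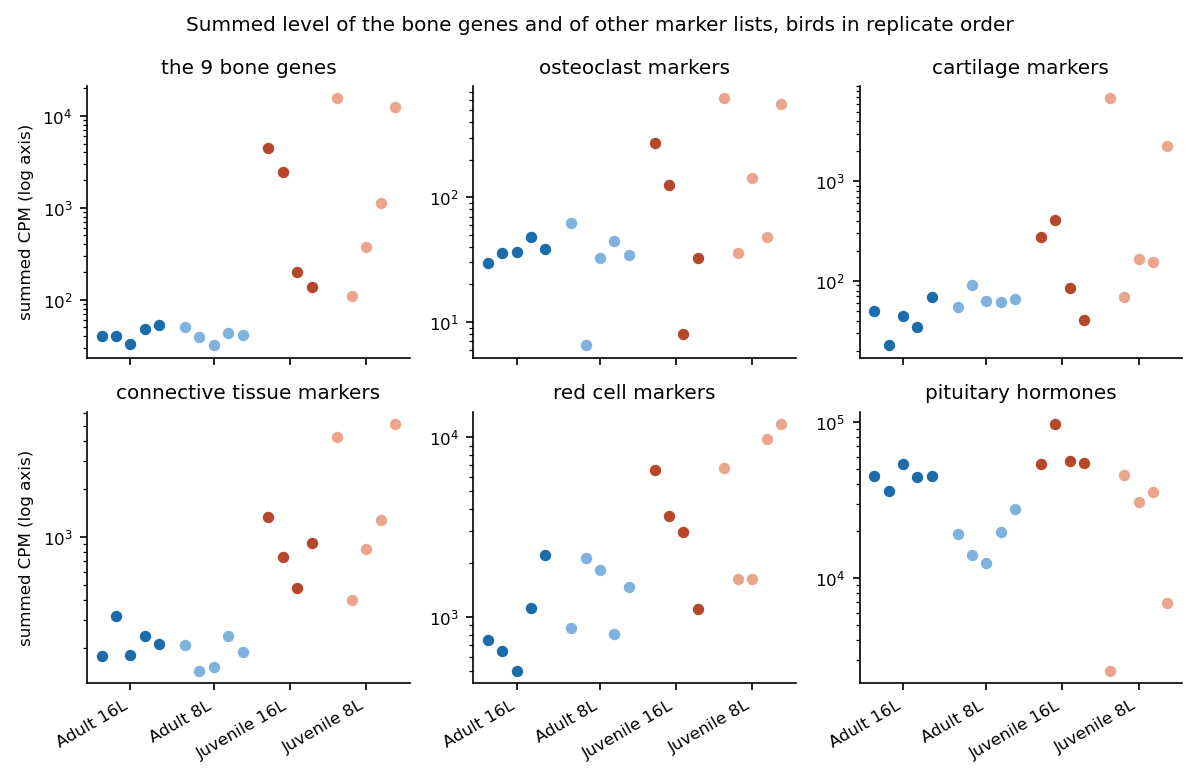
Summed CPM, on a log axis, of the 9 bone genes and of 5 marker lists in each bird, with Adult 16L, Adult 8L, Juvenile 16L and Juvenile 8L from left to right and birds in replicate order within a group. Juveniles 1 and 5 under 8L are highest in the bone, osteoclast, cartilage and connective tissue panels and lowest in the pituitary hormone panel, at 2545 and 6931 CPM.

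The genes whose log2 CPM over the 9 juveniles was most like the mean of the 9 bone genes, out of 4647 with an annotated symbol and at least 50 juvenile counts, were DMP1 (Pearson r = 0.988), MMP13 (0.988), COL5A2 (0.975), CTSK (0.972), COL12A1 (0.960), COL11A1 (0.958), COCH (0.951) and COL5A1 (0.949). MMP13, a collagenase, had 2 counts over all adults and 333 over all juveniles, and CTSK had 12 in adults and 166 in juveniles. COL11A1 had 549 counts in adults and 1439 in juveniles, and COL5A1 had 418 in adults and 857 in juveniles. Leaving out the 2 birds farthest from the median left r between 0.846 and 0.989. With 9 libraries that share depth across genes, these are descriptions without a test.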

How the data were processed

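Per the labels and the study's methods, the authors prepared 1 PCR-cDNA library per bird, aligned Nanopore reads with minimap2 and quantified transcripts with Salmon, whose versions are not given in the sources used here. They deposited estimated counts for 63260 transcripts, which were summed over 19562 gene symbols and rounded for the fits. Of these, 11430 symbols, 8 of the 9 members among them, were found in the RefSeq table of assembly Coturnix japonica 2.1. Of the 5993 symbols starting with LOC 0 were found there, and of the transcript identifiers 0. The transcripts counted were therefore not named from that annotation, although the methods name a quail genome. What this did to the levels, the zeros and the collagen shares was not tested.

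Ages and photoperiods were compared in R 4.3.3 with edgeR 4.0.16 (quasi-likelihood test, TMM factors, filterByExpr with a minimum of 10 counts and a total of 15, Benjamini-Hochberg adjustment over all genes tested, threshold 0.05). Fits without the filter gave members that did not pass it. Each standard error is the size of the log2 fold change over the square root of the test's F value. It is not an estimate of the model itself and is least reliable at low counts. Each replicate is a separate bird. CPM used TMM factors from genes past the filter over all libraries, the filter of the fit over both photoperiods. Fits of single pairs of groups filtered and scaled their own libraries, so levels and those fits do not share a scale. Factors over all genes were used at first for CPM and set aside after the values were seen. Totals ran from 90599 to 4796665 counts.

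Alternatives were DESeq2 1.42.0, limma-voom (limma 3.58.1), RLE factors, no scaling, no filter, a stricter filter, a replicate block, 1 fit over all 4 groups, libraries of 200000 counts or more, males alone by listed sex, scaling without bone, cartilage, connective tissue and red cell genes, leaving out 8L juveniles 1 and 5 together, a looser threshold and leaving out each library. The largest transcript in place of the sum, the other CPM scale, and ratios and juvenile means without single libraries or 8L juveniles 1 and 5 were added after seeing the data. Members and lists were chosen with earlier results of these data known. The text names all members, up to 4 called genes with the smallest p per bone list and age comparison (the 2 smallest where fewer than 2 were called), the 8 genes most like the members' mean, and the leading marker of each other list. POSTN, SP7 and COL2A1, marker genes called within a list and the remaining genes of the most-alike set were named besides where a count or a definition turned on them, after their values were seen. One result of the osteoblast regulator list is not reported here.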

Additional observations from a re-analysis of the deposited data

Results flagged for a closer look

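Among 36 groups of birds examined, 1 for each gene and group, 5 had a bird far from the others by Dixon's criterion at 95%. Chance alone meets it in about 1 in 20 groups of normally distributed values. Counts with many zeros need not keep that rate, since a lone bird with counts among birds at 0 always meets it, as with SPP1. The number of flags is therefore no sign of an excess. COL1A2 was lowest in 16L adult 5, at 3.16 CPM from 4 counts, with the next adult at 7.14 CPM. SPP1 was at 1.03 CPM in 16L adult 3, from 5 counts, with the other 16L adults at 0. SPARC was at 94.8 CPM in 16L juvenile 1, from 21 counts, with the next at 29.1 CPM. RUNX2 was at 90.3 CPM in the same bird, from 20 counts, with the next at 9.70 CPM. PHEX was at 13 CPM in 8L adult 2, from 2 counts, with the next at 3.28 CPM. With TMM factors over all genes 3 of the 5 remained, without COL1A2 and PHEX, and with library totals alone 3 remained, without COL1A2 and SPARC.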

How the results depend on the processing

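The number of members called lower in adults under 16L was 3 of 5 fitted, where 87 of 6641 genes were called in all. It became 4 of 5 with DESeq2 (187 genes in all) and 1 of 5 with limma-voom (35 in all). Without the filter it became 5 of 9 (183 of 18366 genes in all). With at least 10 counts in every library of one group it became 1, the only member fitted, where 81 of 4883 genes were called. With a replicate block it became 0, where 0 of all 6641 genes were called. Under 8L the number was 2 of 4 fitted, where 8 of 5106 genes were called in all. It became 4 of 4 with DESeq2 (107 genes called in all), 0 with limma-voom (4 in all) and 1 with RLE factors (4 in all). With a replicate block it became 1, the only gene called. It became 6 of 9 without the filter (135 of 18228 genes in all) and 4 of 8 with all 4 groups in one fit (55 of 7165 in all). It became 0 of 6 with libraries of 200000 counts or more (3 genes in all). When each library was left out the number was 0 to 3, and without 8L adult 3, 4 or 5 no gene at all was called. Over both photoperiods the number was 7 of 8 fitted (140 of 7165 genes in all), and became 3 of 8 with limma-voom (128 in all). With the stricter filter, which left fewer members to fit, it was 3 of 3 (57 of 4921 genes in all). The 5 calls without a filter under 16L became 3 with libraries of 200000 counts or more, where 204 of 18250 genes were called. The 6 under 8L became 1 with limma-voom, where 21 of 18228 genes were called. The log2 fold change of RUNX2 under 16L turned to 0.81 with limma-voom, 0.22 with the replicate block and 3.25 with the deeper libraries. It ran from -1.18 to 2.41 over the 4 fits without 1 library in which RUNX2 passed the filter. Under 8L it turned to 0.40 without 8L juveniles 1 and 5. PHEX under 16L without a filter turned to 0.42 with the deeper libraries. Between photoperiods in adults, COL1A2 turned to -0.054 with limma-voom, -0.0039 with RLE factors, -0.21 without scaling and -0.027 with the replicate block. It ran from -0.16 to 0.19 over the 9 fits without 1 library in which COL1A2 passed the filter. RUNX2 turned to 0.038 without the filter and 0.025 with all 4 groups in one fit, and ran from -0.43 to 0.23 with each library left out. In juveniles PHEX turned to 1.34 with the replicate block. Without 8L juveniles 1 and 5, the birds highest in these genes, COL1A1 turned to 1.54, COL1A2 to 1.74, IBSP to 1.15 and SPP1 to 2.95. The cause of these moves was not tested. Leaving out scaling moved the median log2 fold change of all genes under 8L to 0.50 beside 0.09, between adult photoperiods to -0.25 beside 0.02, over both photoperiods to 0.39 beside 0.16 and in the interaction to -0.20 beside 0.14. Birds with the same number shared only a number, with correlations of their deviations from -0.138 to 0.121, so the replicate block is no paired test. Of the single-gene values 682 kept their direction and side of the threshold, 66 lost a call, 5 gained one and 27 turned. Depth limits ALPL, IFITM5 and adult IBSP and SPP1 most, where 1 count stood for 0.206 to 9.70 CPM.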
